A study of Mus musculus with 10 samples.

Results

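The Polycomb and Trithorax component genes are 37 genes chosen by symbol: subunits of both Polycomb repressive complexes, the enzymes that oppose them, and Ctcf. The choice was made with earlier results of these data known. All 37 were found among the 52459 gene symbols of the raw count table, and all 37 were among the 18818 genes that passed the filter on low counts. The samples are RNA-seq libraries of the C57BL/6 mouse embryonic stem cell line ES-Bruce4 on its way to neuromesodermal progenitors, the cells of the posterior embryo that feed both spinal cord and trunk mesoderm. The 5 groups, with n = 2 libraries each, were day 2 (D2), day 3 (D3), day 6 (D6), day 7 with Gdf11 (D7G) and day 7 without it (D7). All cells were wild type and had been kept on embryo fibroblasts, which were depleted before plating. All groups received basic Fgf (10 ng/ml) from day 0. All but D2 had been given CHIR99021 (5 µM) on day 2, which blocks Gsk3 and so switches on the Wnt pathway. For all groups but D2 a split of the cells on day 3 is also recorded. The D7G cells also received human Gdf11 (50 ng/ml), a Tgf-β family ligand, on day 6 for 24 h. The labels call D2 epiblast stem cells and the other groups neuromesodermal progenitors. All groups come from 1 cell line, and nothing in the labels shows that the libraries of a group came from separate cultures. All p-values below therefore reflect library-to-library spread, possibly of a technical kind.

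Polycomb repressive complex 2 (PRC2) methylates lysine 27 of histone H3, and Polycomb repressive complex 1 (PRC1) ubiquitinates histone H2A and compacts chromatin. Together they keep developmental genes silent, the Hox clusters being the classical example, and Trithorax group proteins, many of them H3K4 methyltransferases, oppose them. Each complex exists in several versions that differ in which of a set of related subunits they hold. Ctcf is a DNA-binding insulator protein that marks boundaries within the Hox clusters.

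Over the untreated course the 5 members with the largest change were Cbx8 and Bmi1, both higher on D7 than on D2, and Phc1, Cbx7 and Phf19, all lower. Their promoter windows are shown because their changes were the largest. Each runs from 250 bases before to 50 after the annotated start in RefSeq (GRCm38.p6, the assembly of mm10), 5′ to 3′ on the gene's own strand. Capitals mark matches to the searched motifs on either strand, and run together where motifs overlap or adjoin. The GC box, to which Sp1-type factors bind, was searched as GGGCGG, and the CCAAT box by the letters of its name. The motif of the cell-cycle factors of the E2F family was searched as TTTGGCGC or TTTCCCGC, and the E-box of the Myc and Max type as CACGTG. The motif of the Wnt effectors Tcf and Lef was searched as CTTTGAT. The window of Phc1 lies at chr6:122340178-122340477 on the minus strand, that of Cbx7 at chr15:79932597-79932896 on the minus strand and that of Phf19 at chr2:34913927-34914226 on the minus strand. That of Cbx8 lies at chr11:119040864-119041163 on the minus strand and that of Bmi1 at chr2:18676768-18677067 on the plus strand. The Cbx7 and Phc1 windows lie wholly inside the spans that the count table gives these genes, which reach chr15:79971119 and chr6:122340561.
Phc1: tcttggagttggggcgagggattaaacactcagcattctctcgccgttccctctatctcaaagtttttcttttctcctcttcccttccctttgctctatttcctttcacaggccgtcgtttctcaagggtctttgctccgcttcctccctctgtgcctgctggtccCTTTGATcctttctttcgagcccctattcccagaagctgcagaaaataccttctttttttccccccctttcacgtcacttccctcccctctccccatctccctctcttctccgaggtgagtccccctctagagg
Cbx7: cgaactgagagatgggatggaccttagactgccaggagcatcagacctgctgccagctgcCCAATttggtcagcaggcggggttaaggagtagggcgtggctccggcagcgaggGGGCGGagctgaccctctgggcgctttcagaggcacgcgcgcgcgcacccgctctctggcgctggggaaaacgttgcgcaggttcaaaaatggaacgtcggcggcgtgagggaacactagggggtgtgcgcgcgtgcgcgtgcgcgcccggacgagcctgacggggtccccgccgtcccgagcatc
Phf19: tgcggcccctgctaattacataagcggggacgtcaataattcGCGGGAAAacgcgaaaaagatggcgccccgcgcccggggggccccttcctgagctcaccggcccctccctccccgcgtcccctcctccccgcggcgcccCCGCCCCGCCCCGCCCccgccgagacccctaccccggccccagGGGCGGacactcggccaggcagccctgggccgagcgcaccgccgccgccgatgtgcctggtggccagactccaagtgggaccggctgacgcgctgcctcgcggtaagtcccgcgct
Cbx8: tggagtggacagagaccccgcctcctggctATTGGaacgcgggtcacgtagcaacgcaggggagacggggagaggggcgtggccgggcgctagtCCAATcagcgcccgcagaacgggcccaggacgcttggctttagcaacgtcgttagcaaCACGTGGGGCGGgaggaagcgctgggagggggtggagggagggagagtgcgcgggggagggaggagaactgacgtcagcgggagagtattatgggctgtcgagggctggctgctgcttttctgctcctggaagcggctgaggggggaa
Bmi1: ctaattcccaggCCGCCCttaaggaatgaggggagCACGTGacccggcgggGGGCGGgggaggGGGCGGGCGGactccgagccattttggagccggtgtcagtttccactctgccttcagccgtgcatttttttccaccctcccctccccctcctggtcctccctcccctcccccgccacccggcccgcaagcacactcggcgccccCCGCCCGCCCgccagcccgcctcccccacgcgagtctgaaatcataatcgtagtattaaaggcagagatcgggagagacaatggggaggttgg
The windows differ in composition. That of Phc1 had a GC content of 52.0% and 9 CpG dinucleotides, while Cbx7 had 67.3% and 33, Phf19 74.3% and 38, Cbx8 66.0% and 24, and Bmi1 66.3% and 23. The Phc1 window held 0 GC boxes and a Tcf/Lef match that starts at position -84 from the annotated start. Bmi1 held 6 GC boxes and Phf19 held 4, and the E2F match of Phf19 starts at -208. In Cbx8 an E-box at -98 directly adjoins a GC box at -92.

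A window was found for 30 members, and for the comparison with other genes the first listed window of each gene was taken. The median GC content of the members' windows was 66.2% (range 48.0 to 88.0), beside a median of 52.7% over all 27025 genes with a window. The median ratio of observed to expected CpG was 0.836 in the members and 0.389 in all genes. GC boxes were present in 23 of 30 members (76.7%) and in 35.9% of all windows, and the E-box in 8 (26.7%) and 7.24%. The E2F motif was present in 3 members (10.0%), namely Ezh2, Suz12 and Phf19, and in 1.63% of all windows. CCAAT boxes were present in 10 members (33.3%) and 37.9% of all, and Tcf/Lef in 2 (6.67%) and 3.72%. The octamer ATGCAAAT was in 0 of these member windows and in 1.75% of all. A match says only that these letters stand in the window, and GC-rich windows hold more GC-rich letters.

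Libraries held 31078950 to 33418015 gene counts. Levels are given as CPM, the count of a gene scaled to the library total after TMM correction. Calls rest on edgeR's quasi-likelihood test over all genes tested, with a threshold of 0.05 on the adjusted p. Replicates correlated at 0.998 or more across genes. Each library mixes the RNA of a whole culture, so fewer cells of a type and less RNA per cell cannot be told apart. In the marker lists the 6 epiblast genes summed to 2430 CPM in both D2 libraries and 622 and 611 on D3, and to 290 to 380 in all later libraries. The 6 neuromesodermal genes summed to 6.25 and 5.53 CPM on D2 and to 868 and 887 on D3, then to 369 and 401 on D6, 141 and 150 in D7G and 165 and 157 on D7. The 6 embryo-fibroblast genes summed to 140 and 176 CPM on D2, 286 and 276 on D3 and 197 and 185 on D6. On D3 against D2, 4 of these rose, beside 29.6% of all genes, and on D6 against D3, 5 fell, beside 33.3%. Among the 5 was Col1a1, at 7.31 and 9.04 CPM on D6, against 101 and 95.5 on D3, while Col3a1 rose. The neural progenitor sum was 328 and 314 CPM on D2, 232 and 217 on D3 and 370 and 333 on D6, and the presomitic and somitic sum 19.0 and 20.0, then 21.7 and 24.6, then 121 and 96.9. The part of these markers in the results at the early steps was not tested. No gene of these lists was at 0 in a whole group except Msgn1 on D2.

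Of the 37 members, 12 rose and 19 fell on D3 against D2, which is 32.4% and 51.4% of them, beside 29.6% and 28.9% of all genes tested. On D6 against D3, 15 rose and 17 fell, beside 32.4% and 33.3% of all genes. On D7 against D6, 4 rose and 11 fell, beside 20.5% and 15.6% of all genes. In D7G against D7, 13 rose and 7 fell, beside 22.5% and 18.2%. Over the whole untreated course, D7 against D2, 14 rose and 19 fell, beside 34.2% and 34.4%. The members' median log2 fold changes in these 5 comparisons were -0.11, -0.01, -0.04, 0.02 and -0.11, beside 0.00, -0.01, 0.04, 0.02 and 0.00 over all genes. Changes of at least 2-fold were called in 2 members on D3 against D2, beside 2668 of the 18818 genes, and in 3 on D6 against D3, beside 3970 genes. There were 0 such members on D7 against D6, beside 627 genes, and 0 in D7G against D7, beside 979 genes. The D7 count fell to 9 called members (against 15) without D6 replicate 1 or without D7 replicate 2, and the D7G count to 13 (against 20) without D7 replicate 2.

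**Figure D1:**
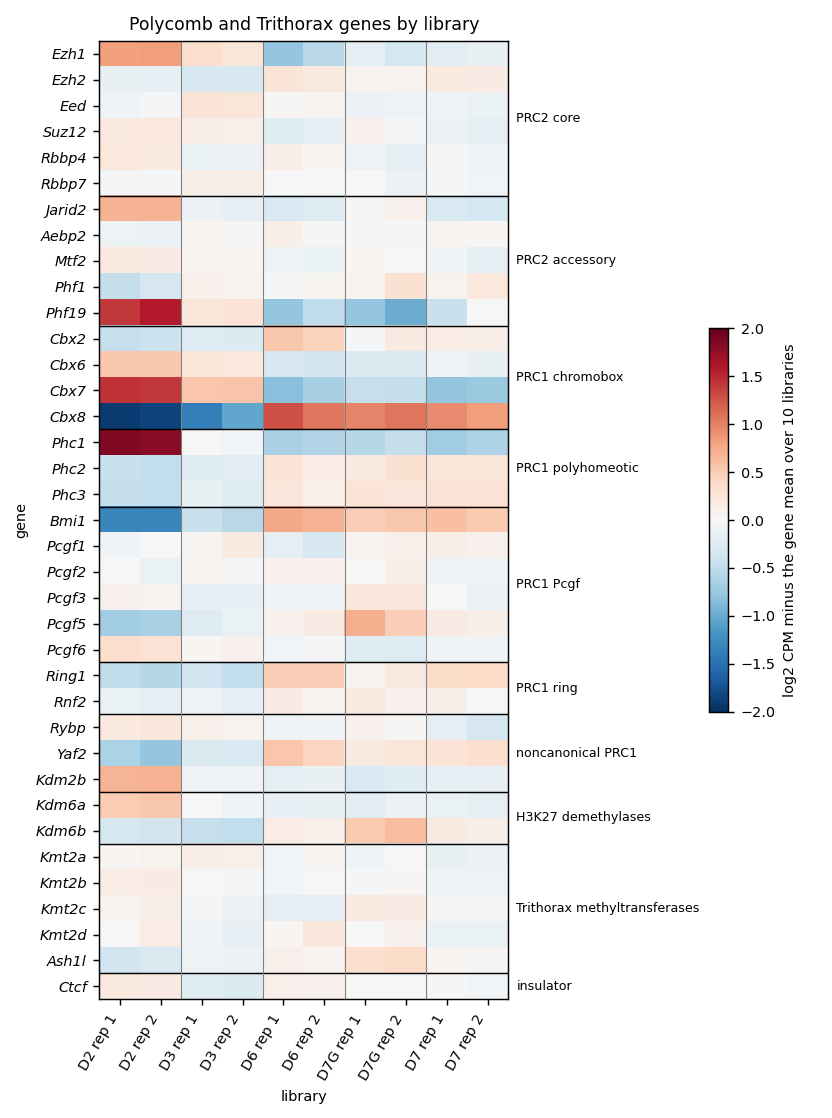
Log2 CPM of each of the 37 genes (rows, grouped by role) in each of the 10 libraries (columns, named by group and replicate), minus the gene's mean over all libraries; red is above and blue below that mean, and the scale is cut at 2 in either direction. In the D2 libraries Phc1, Cbx7 and Phf19 are far above and Cbx8 and Bmi1 far below their means.

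In the PRC2 core, the catalytic subunits Ezh1 and Ezh2 moved in opposite directions on D6 against D3. Of the 6 core genes 2 rose and 3 fell on D3 against D2, beside 29.6% and 28.9% of all genes. On D6 against D3, 2 rose and 4 fell, beside 32.4% and 33.3%. Ezh1, the form with the weaker methyltransferase activity, stood at 62.1 and 62.8 CPM on D2, 44.2 and 41.7 on D3, 20.5 and 24.0 on D6, 30.7 and 27.6 in D7G and 30.5 and 31.7 on D7. It was thus lowest on D6, and the libraries of D2, D3, D6 and D7 did not overlap. The fall on D6 against D3 was 0.95 ± 0.07 (SE) on the log2 scale (adjusted p = 2.57e-10), and on D7 against D6 it rose by 0.48 ± 0.07 (adjusted p = 2.98e-05). Ezh2, the main methyltransferase of dividing cells, had 224 and 221 CPM on D2, 199 and 199 on D3, 298 and 282 on D6, 259 and 261 in D7G and 283 and 278 on D7. It rose on D6 against D3 by 0.54 ± 0.04 (adjusted p = 5.70e-11), with no overlap between the groups. Per exonic kilobase, Ezh1 made up 5.83 and 7.09% of the sum of both genes in the D6 libraries, against 19.9 and 20.3% in the D2 libraries. This share was 9.63 and 8.66% in D7G, against 8.82 and 9.29% on D7, and these groups overlapped.

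The other core subunits changed less. Eed, which binds the methylated histone tail, rose on D3 against D2 (0.31 ± 0.04, adjusted p = 6.93e-07) and fell on D6 against D3 (-0.21 ± 0.04). Suz12, the scaffold of the complex, fell on D6 against D3 (-0.32 ± 0.04, adjusted p = 6.61e-07), with 232 and 242 CPM on D6, against 301 and 293 on D3. The histone chaperone genes Rbbp4 and Rbbp7 are shared with other chromatin complexes and moved in opposite directions on D3 against D2, Rbbp4 by -0.32 ± 0.04 and Rbbp7 by 0.15 ± 0.04. Between days 2 and 7 neither Eed (-0.05 ± 0.04) nor Rbbp7 (-0.02 ± 0.04) passed the test. On the per-kilobase scale Rbbp7 was the highest core gene in every group (152 to 172 CPM per kb) and Ezh1 the lowest (2.99 to 8.40).

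The mitosis and DNA replication lists moved along with part of this pattern, and their part in it was not tested. The 10 mitosis genes summed to 2290 and 2360 CPM on D3, against 3480 and 3560 on D2. Of these 10, 9 fell, beside 28.9% of all genes. On D6 they summed to 2960 and 2940 CPM. All 10 rose against D3, as did 8 of 10 replication genes, beside 32.4% of all genes. Ezh2, Rbbp4, Ctcf, Kmt2d and Kdm6b were likewise called lower on D3 and higher on D6. The other members, Ezh1, Suz12 and Eed among them, did not follow that course. With library totals in place of TMM factors, the D3 calls of Ezh2, Kmt2d and Kdm6b were lost (edgeR adjusted p = 0.0576, 0.0686 and 0.537).

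Among the accessory subunits of PRC2, which steer it to its targets, Jarid2 and Phf19 fell most at the first step. Of the 5 genes 2 rose and 3 fell there, beside 29.6% and 28.9% of all genes. On D6 against D3, 0 rose and 3 fell, beside 32.4% and 33.3%. Jarid2, the defining subunit of the PRC2.2 form, had 292 and 291 CPM on D2, 166 and 161 on D3, 146 and 151 on D6, 183 and 191 in D7G and 146 and 141 on D7. All D2 libraries lay above all others, and the fall on D3 against D2 was 0.84 ± 0.04 on the log2 scale (adjusted p = 2.32e-13). Phf19, a Polycomb-like protein that reads H3K36 methylation, stood at 11.2 and 12.6 CPM on D2, 4.99 and 5.12 on D3, 2.45 and 2.94 on D6, 2.45 and 2.11 in D7G and 3.08 and 4.16 on D7. Its level on D3 was thus 2.36-fold lower than on D2 (-1.24 ± 0.13, adjusted p = 4.86e-08), and on D6 it was 1.88-fold lower than on D3 (-0.91 ± 0.16). Per exonic kilobase it was the lowest accessory gene in every group, and it rested on 68 to 384 counts per library. Its paralogue Mtf2 changed by -0.17 to 0.15 in the 4 adjacent comparisons, and fell on D7 against D2 (-0.31 ± 0.04, adjusted p = 3.36e-07). Mtf2 stayed the highest accessory gene per kilobase (31.6 to 39.3 CPM per kb).

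Phf1, the remaining Polycomb-like gene, rose on D3 against D2 (0.48 ± 0.10, adjusted p = 0.000357), with 13.0 and 12.7 CPM on D3, against 8.78 and 9.68 on D2. Aebp2, the partner of Jarid2 in PRC2.2, rose slightly in the same comparison (0.15 ± 0.04, adjusted p = 0.00381). The log2 ratio of Aebp2 to Jarid2 per exonic kilobase was -0.60 in both D3 libraries, against -1.57 and -1.59 in the D2 libraries. With Gdf11 it was -0.85 and -0.91, against -0.42 and -0.39 on D7, so both changes in the balance of this pair lay outside the spread of the libraries.

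The chromobox genes encode the PRC1 subunits that read H3K27 methylation, and their transcripts moved most among the role groups, with a median absolute log2 fold change of 1.43 on D7 against D2, beside 0.48 over all members. Cbx7, the form that prevails in embryonic stem cells, had 381 and 371 CPM on D2, 205 and 207 on D3, 77.8 and 88.3 on D6, 101 and 99.9 in D7G and 80.5 and 82.9 on D7. It fell at both early steps, by 0.87 ± 0.04 on D3 against D2 (adjusted p = 1.08e-12) and by 1.31 ± 0.05 on D6 against D3 (adjusted p = 3.68e-15), and was 4.60-fold lower on D7 than on D2. Cbx2, a form with strong chromatin-compacting activity, had 71.0 and 72.7 CPM on D2, 81.8 and 80.8 on D3, 142 and 134 on D6, 95.7 and 111 in D7G and 109 and 107 on D7. It rose by 0.76 ± 0.05 on D6 against D3 (adjusted p = 9.62e-11) and fell by 0.35 ± 0.05 on D7 against D6 (adjusted p = 2.67e-05). The smaller rise of Cbx2 on D3 against D2 (0.18 ± 0.05) was no longer called without D2 replicate 1 (adjusted p = 0.0765).

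Cbx8 had 32 and 33 counts (1.05 and 1.09 CPM) on D2 and 50 and 62 (1.53 and 1.91 CPM) on D3. On D6 it had 299 and 256 counts (9.62 and 8.26 CPM), in D7G 247 and 265 (7.74 and 8.24 CPM) and on D7 254 and 233 (7.60 and 7.02 CPM). The rise was concentrated between days 3 and 6, at 5.19-fold (2.37 ± 0.14, adjusted p = 1.30e-11). The first step (0.69 ± 0.22, adjusted p = 0.0113) was not called without D2 replicate 1 (adjusted p = 0.0585) or D3 replicate 2 (adjusted p = 0.108). The fall on D7 against D6 (-0.29 ± 0.11, adjusted p = 0.0462) was lost without D2 replicate 1 or 2 (adjusted p = 0.0562 and 0.0566), D6 replicate 1 (adjusted p = 0.352) or D7 replicate 2 (adjusted p = 0.164), and with DESeq2 (adjusted p = 0.176), library totals (adjusted p = 0.0756) or a replicate block (adjusted p = 0.0504). Cbx6 had 91.1 and 90.7 CPM on D2, 74.5 and 72.2 on D3, 49.5 and 48.7 on D6, 51.3 and 51.1 in D7G and 58.5 and 56.8 on D7. It fell at both early steps (-0.31 ± 0.04 and -0.58 ± 0.04) and rose on D7 against D6 (0.23 ± 0.05, adjusted p = 0.000496).

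The chromobox members lie in pairs of neighbours in the genome. On mouse chromosome 11 (mm10), Cbx2 (chr11:119022962-119031270, plus strand) and Cbx8 (chr11:119036305-119040969, minus strand) are 5035 bases apart with 0 listed genes between them. Both rose on D6 against D3. On chromosome 15, Cbx6 (chr15:79823896-79834688) and Cbx7 (chr15:79915807-79971119), both on the minus strand, are 81119 bases apart, again with 0 listed genes between them. Both fell at both early steps, but on D7 against D6 Cbx6 rose (0.23 ± 0.05) and Cbx7 did not pass (-0.02 ± 0.05), and in D7G against D7 Cbx6 fell (-0.17 ± 0.04) and Cbx7 rose (0.30 ± 0.05). Exons of Cbx6 overlap 563 bases of Npcd on the same strand, which had 0 counts in every library, and Cbx7 shares 100 bases with Apobec3 on the opposite strand (118 to 902 counts). Whether counting used the strand is not given in the sources used here, and reads in such overlaps are uncertain.

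Per exonic kilobase, Cbx7 took 21.5 and 24.7% of the sum of the 4 chromobox members in the D6 libraries, against 65.1 and 64.3% in the D2 libraries. Cbx2 took 59.7 and 57.2% on D6, against 18.5 and 19.2% on D2, so the order of the pair reversed. The level of this sum was 55.7 and 55.2 CPM per kb on D6, against 90.2 and 89.0 on D2. The share of each gene depends on the length taken for it. With the median annotated transcript length in place of the full exonic length, Cbx7 made up 46.5% on D6, against 78.1% on D2, and Cbx2 24.1% on D6, against 4.64% on D2, so that Cbx7 stayed the higher gene. The change in their ratio does not depend on length: the log2 ratio of Cbx2 to Cbx7 changed by 1.05 on D3 against D2 and by 2.07 on D6 against D3, with no overlap between groups.

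Among the polyhomeotic genes, whose products polymerise and cluster PRC1, only Phc1 fell at the early steps. Its fall was the largest of all members on D3 against D2 and on D7 against D2. Phc1 had 779 and 760 CPM on D2, 215 and 209 on D3, 138 and 145 on D6, 146 and 155 in D7G and 134 and 141 on D7. Within the single day after CHIR99021 was added it was 3.62-fold lower (-1.86 ± 0.04, adjusted p = 1.94e-18), and on D7 it was 5.59-fold lower than on D2. Phc2 took the opposite course, with 82.2 and 79.9 CPM on D2, 94.5 and 96.6 on D3 and 136 and 124 on D6, and rose at both steps (0.24 ± 0.05 and 0.45 ± 0.05). Phc3 also rose at both (0.29 ± 0.06 and 0.37 ± 0.05). Phc1 made up 53.5 and 57.0% of the family's sum per exonic kilobase in the D6 libraries, against 91.5% in both D2 libraries. With median transcript lengths that share was 21.9% on D6, below the 69.3% of Phc2, against 70.9% on D2. The sum of the family, on the scale of exonic length, was 48.5 and 48.0 CPM per kb on D6, against 161 and 157 on D2.

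**Figure D2:**
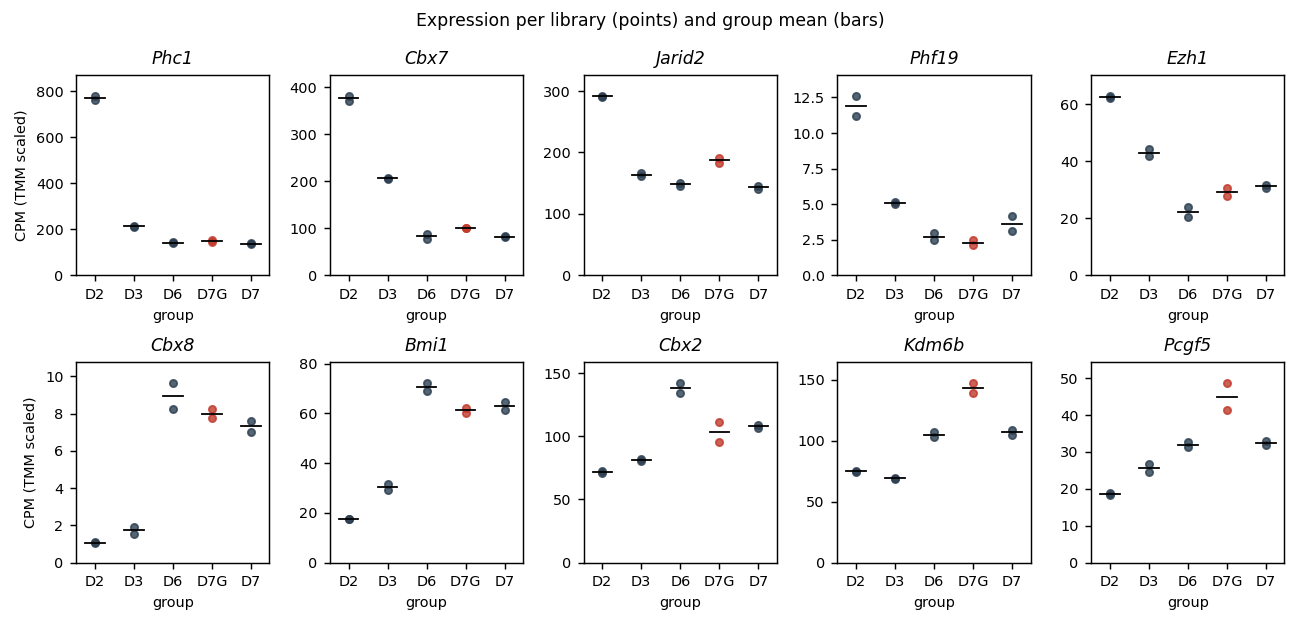
CPM (vertical axes, from 0) of 10 genes in the groups D2, D3, D6, D7G and D7; points are libraries, with D7G in red, and bars are means of 2. Phc1 drops on D3, Cbx7 falls over both early steps, and Cbx8 and Bmi1 rise by D6. Pcgf5 and Kdm6b are highest in D7G.

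The Pcgf genes define which PRC1 version forms. Bmi1 (Pcgf4) and Pcgf2 (Mel18) belong to the canonical complexes and Pcgf1, Pcgf3, Pcgf5 and Pcgf6 to the noncanonical ones. Of the 6 genes 2 rose and 2 fell on D3 against D2, beside 29.6% and 28.9% of all genes. On D6 against D3 again 2 rose and 2 fell, beside 32.4% and 33.3%. Bmi1 had 17.4 CPM in both D2 libraries, 31.6 and 29.1 on D3, 72.1 and 69.2 on D6, 60.3 and 62.2 in D7G and 64.6 and 61.3 on D7. It rose by 0.81 ± 0.06 on D3 against D2 (adjusted p = 1.14e-09) and by 1.22 ± 0.05 on D6 against D3 (adjusted p = 1.01e-13). Its fall on D7 against D6 (-0.17 ± 0.05) was not called without D6 replicate 1 (adjusted p = 0.108) or D7 replicate 2 (adjusted p = 0.0576). Its paralogue Pcgf2 had 64.7 to 77.1 CPM over all 10 libraries and did not pass at either early step (0.09 ± 0.05 and 0.07 ± 0.05). Per exonic kilobase Bmi1 averaged 17.8 and Pcgf2 21.4 CPM per kb on D6, against 4.37 for Bmi1 and 19.2 for Pcgf2 on D2. The order of the pair depends on the length used: with median transcript lengths the log2 ratio of Bmi1 to Pcgf2 was 1.36 on D7, against -0.49 on D2.

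Of the noncanonical genes, Pcgf6, which acts with Mga and Max in silencing germline genes, was the highest per exonic kilobase in every group, while with median transcript lengths Pcgf3 was. It had 99.3 and 95.8 CPM on D2, 79.9 and 82.8 on D3 and 74.0 and 74.2 on D7, a fall of 0.40 ± 0.04 on D7 against D2 (adjusted p = 3.98e-08). Mga, from the list of further Polycomb genes, fell as well and was named after its values were seen: 230 and 226 CPM on D7, against 467 and 494 on D2 (-1.08 ± 0.04, adjusted p = 1.82e-15). Pcgf5 rose at both early steps (0.47 ± 0.08 and 0.32 ± 0.07), with 31.2 and 32.8 CPM on D6, against 24.5 and 26.8 on D3. Pcgf3 fell on D3 against D2 (-0.23 ± 0.04). Pcgf1 fell on D6 against D3 (-0.38 ± 0.10, adjusted p = 0.00329) and rose on D7 against D6 (0.35 ± 0.10, adjusted p = 0.0115). This rise was lost without D6 replicate 2 (adjusted p = 0.0988) or without D7 replicate 1 or 2 (adjusted p = 0.0893 and 0.0621).

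**Figure D3:**
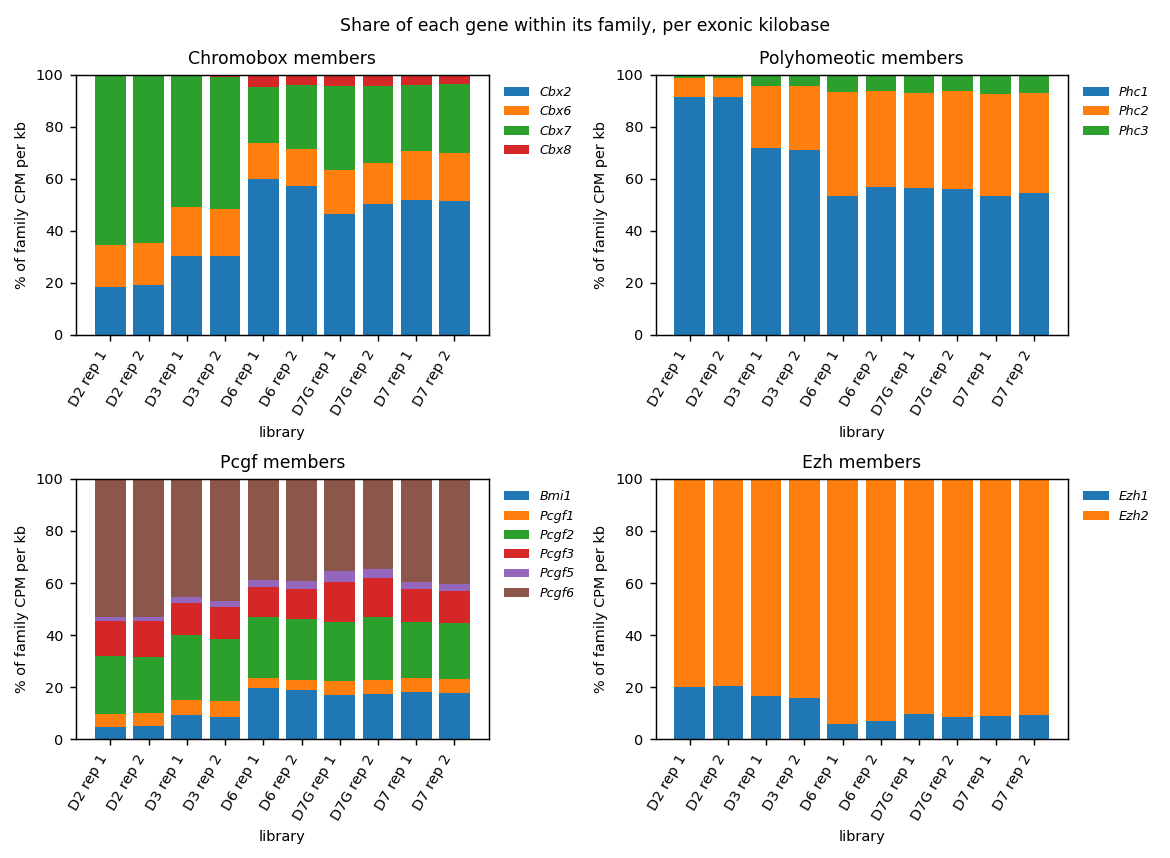
Share of each gene in the summed CPM per exonic kilobase of its family (vertical axes, in %) in each of the 10 libraries (horizontal axes), for the chromobox, polyhomeotic, Pcgf and Ezh genes. Cbx7 holds 21.5 and 24.7% in D6, against 65.1 and 64.3% in D2, and Phc1 53.5 and 57.0% in D6, against 91.5% in both D2 libraries.

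The E3 ligase subunits of PRC1, Ring1 (Ring1a) and Rnf2 (Ring1b), did not pass on D3 against D2 (0.09 ± 0.07 and 0.02 ± 0.05). On D6 against D3 both rose, Ring1 by 0.94 ± 0.06 (adjusted p = 7.43e-11) and Rnf2 by 0.24 ± 0.05. Ring1 stood at 37.5 and 37.4 CPM on D6, against 20.2 and 18.9 on D3. Rnf2 stayed the higher of the pair, with 178 and 163 CPM on D6 (41.2 per kb, beside 11.5 for Ring1).

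Rybp and Yaf2 are paralogues that compete for the same place in noncanonical PRC1, and they diverged. Yaf2 had 25.4 and 23.0 CPM on D2, 32.3 and 31.8 on D3, 57.7 and 52.9 on D6, 44.7 and 46.6 in D7G and 47.8 and 48.9 on D7. It rose at both early steps (0.41 ± 0.06 and 0.79 ± 0.06, adjusted p = 2.88e-10 for the second). Rybp had 39.2 and 35.4 CPM on D7, against 51.5 and 52.5 on D2, a fall of 0.48 ± 0.05 (adjusted p = 1.42e-07). Kdm2b, the CpG-island-binding subunit that brings PRC1.1 to chromatin, fell to 94.3 and 93.9 CPM on D3, against 159 and 160 on D2 (-0.76 ± 0.04, adjusted p = 1.26e-12). Its later values stayed between 80.2 and 89.0 CPM.

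Of the H3K27 demethylases, Kdm6a (Utx), encoded on the X chromosome, fell on D3 against D2 (-0.56 ± 0.04, adjusted p = 1.33e-09), with 84.6 and 79.9 CPM on D3, against 120 and 123 on D2. Kdm6b (Jmjd3) had 75.1 and 74.3 CPM on D2, 69.6 and 68.6 on D3, 107 and 103 on D6, 139 and 147 in D7G and 109 and 105 on D7. It rose on D6 against D3 (0.60 ± 0.04, adjusted p = 1.41e-10). Its first step (-0.11 ± 0.04, adjusted p = 0.0322) was lost when any D2 or D3 library was left out (adjusted p = 0.0899 to 0.170). Kdm6b exceeded Kdm6a per exonic kilobase in all D6, D7G and D7 libraries and stood below it in both D2 libraries. With median transcript lengths this order did not change between D2 and D7, the log2 ratio of Kdm6b to Kdm6a being -0.14 on D7 and -1.34 on D2.

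The Trithorax methyltransferases changed little. Kmt2a (Mll1) and Kmt2b (Mll2), which methylate H3K4 at promoters, Kmt2c and Kmt2d, which do so at enhancers, and Ash1l, an H3K36 methyltransferase, kept within 0.26 of 0 on the log2 scale in the 3 adjacent comparisons of the untreated course. Ash1l rose on D3 against D2 (0.23 ± 0.05) and on D6 against D3 (0.18 ± 0.04), with 78.6 and 76.2 CPM on D6, against 56.3 and 60.1 on D2. Over D7 against D2 the other 4 fell by 0.11 to 0.24. The fall of Kmt2c (-0.11 ± 0.04, adjusted p = 0.0351) was lost without D2 replicate 2 (adjusted p = 0.292) or D7 replicate 2 (adjusted p = 0.137), and that of Kmt2d (-0.21 ± 0.05) without D2 replicate 2 (adjusted p = 0.0608). Kmt2d was uneven on D6, at 153 and 175 CPM. Ctcf had 249 and 243 CPM on D2, 183 and 179 on D3 and 233 and 230 on D6. It fell by 0.44 ± 0.04 on D3 against D2 (adjusted p = 3.22e-09) and rose by 0.36 ± 0.04 on D6 against D3 (adjusted p = 5.32e-08).

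**Figure D4:**
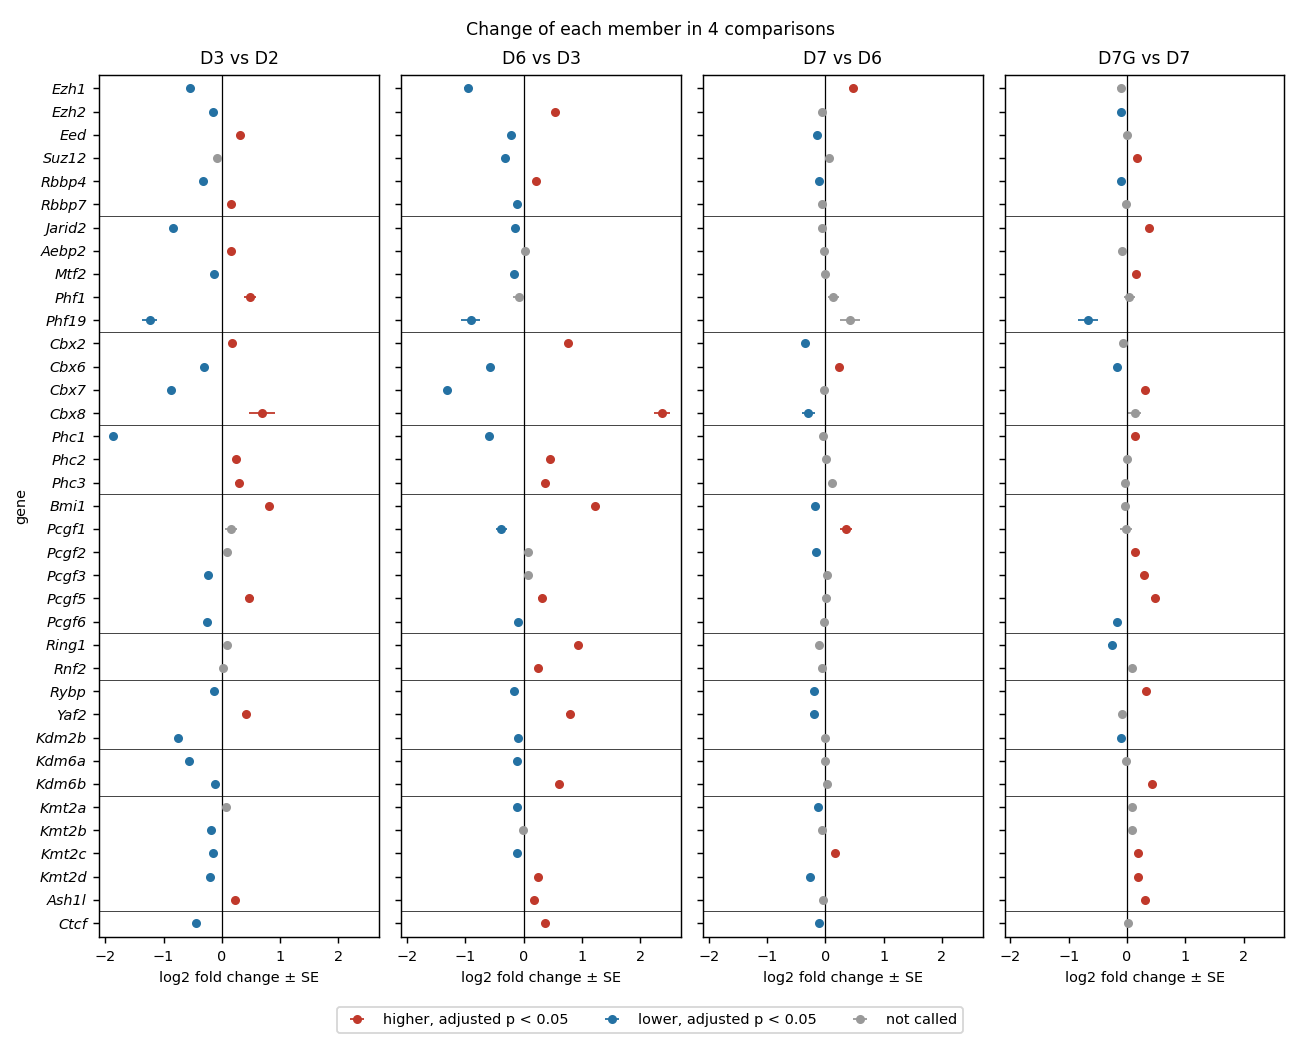
Log2 fold change ± SE (horizontal axes) of each of the 37 genes (rows) in D3 vs D2, D6 vs D3, D7 vs D6 and D7G vs D7; red points were higher and blue points lower in the first-named group at an adjusted p under 0.05, and grey points were not called. Changes of at least 1 in either direction appear in the first 2 panels only.

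Gdf11 is known in the mouse embryo to drive the transition from trunk to tail. The comparison of D7G with D7 sets cultures given it for 24 h beside untreated cultures of the same day. The changes were all under 2-fold. Pcgf5 had 48.6 and 41.4 CPM in D7G, against 32.9 and 31.9 on D7, the largest rise (1.39-fold, 0.48 ± 0.07, adjusted p = 1.43e-05). Kdm6b had 139 and 147 CPM in D7G, against 109 and 105 on D7 (1.33-fold, 0.42 ± 0.04, adjusted p = 7.56e-08). Jarid2 had 183 and 191 CPM in D7G, against 146 and 141 on D7 (1.30-fold, 0.38 ± 0.04, adjusted p = 1.11e-07). In each of the 3 genes both D7G libraries lay above both D7 libraries, and no left-out library ended the call.

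Rybp (0.32 ± 0.05, adjusted p = 9.36e-05), Cbx7 (0.30 ± 0.05), Ash1l (0.30 ± 0.04) and Pcgf3 (0.29 ± 0.04) also rose with Gdf11. Rybp had 47.6 and 45.6 CPM in D7G, against 39.2 and 35.4 on D7, and Cbx7 101 and 99.9 CPM, against 80.5 and 82.9. Ash1l had 91.7 and 94.7 CPM in D7G, against 76.0 and 75.1 on D7. These groups did not overlap. Kmt2c and Kmt2d rose by 0.18 ± 0.04 and 0.18 ± 0.05. Both calls hinged on single libraries: that of Kmt2c was lost without D7 replicate 2 (adjusted p = 0.0943) and that of Kmt2d without D7 replicate 1 or 2 or D7G replicate 2 (adjusted p = 0.0814, 0.106 and 0.126). In the PRC2 core Suz12 rose by 0.17 ± 0.04 (adjusted p = 0.00228), which was lost without D7 replicate 2 (adjusted p = 0.0990) or D7G replicate 1 (adjusted p = 0.157).

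The largest fall with Gdf11 was that of Phf19, at 2.45 and 2.11 CPM in D7G, against 3.08 and 4.16 on D7 (-0.67 ± 0.17, adjusted p = 0.00429). It rested on 68 to 138 counts per library and was not called without D7 replicate 2 (-0.46, adjusted p = 0.0879). Ring1 fell to 27.8 and 30.3 CPM in D7G, against 34.5 and 35.2 on D7 (-0.26 ± 0.06, adjusted p = 0.00155). Pcgf6 (-0.18 ± 0.04) and Cbx6 (-0.17 ± 0.04) fell as well, and Ezh2 fell by 0.11 ± 0.04 (adjusted p = 0.0170). Cbx2 (-0.07 ± 0.05), Cbx8 (0.13 ± 0.11), Bmi1 (-0.04 ± 0.05), Ezh1 (-0.10 ± 0.07) and Ctcf (0.02 ± 0.04) did not pass, but Cbx2 was called lower without D7G replicate 2 (-0.19, adjusted p = 0.00421). The remaining calls were weak. Pcgf2 (0.13 ± 0.05, adjusted p = 0.0451) was lost without D3 replicate 1 or 2, D7 replicate 1 or 2, or D7G replicate 2 (adjusted p = 0.103 to 0.536), and with DESeq2 (adjusted p = 0.120). Phc1 (0.13 ± 0.04) was lost without D7 replicate 1 or D7G replicate 2 (adjusted p = 0.232 and 0.276), and without the filter on low counts (adjusted p = 0.0802). Kdm2b (-0.10 ± 0.04, adjusted p = 0.0485) was lost without either D2, D6 or D7 library or without D7G replicate 1 (adjusted p = 0.0548 to 0.119). Rbbp4 (-0.11 ± 0.04) was lost without either D2 library, D7 replicate 1 or D7G replicate 2 (adjusted p = 0.0514 to 0.229), and Mtf2 (0.15 ± 0.04) without D7 replicate 2 or D7G replicate 1 (adjusted p = 0.183 and 0.0738).

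Marker lists moved with the treatment too, and their part in these changes was not tested. All 10 DNA replication genes and 9 of 10 mitosis genes fell in D7G against D7, the mitosis sum being 2600 and 2540 CPM in D7G, against 2920 and 2880 on D7. All 6 embryo-fibroblast genes rose, with a sum of 946 and 1100 CPM in D7G, against 323 and 301 on D7. Col3a1 alone had 598 and 719 CPM in D7G, against 272 and 251 on D7, and none of the 6 was at 0 in either group. The sum of the 6 neuron genes was 201 and 211 CPM in D7G, against 114 and 120 on D7, and 3 of 6 rose. Of the neural progenitor genes 1 rose and 5 fell, and of the epiblast genes 5 rose and 0 fell. Of the 6 neuromesodermal genes 2 rose and 2 fell, and of the 6 presomitic and somitic genes 2 rose and 2 fell. Over all genes tested, 22.5% rose and 18.2% fell in this comparison.

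Further genes of both systems, listed by function, were read from the same fit. Of 22 other Polycomb genes, 11 rose and 5 fell on D3 against D2 (median 0.10), beside 29.6% and 28.9% of all genes. On D6 against D3, 11 rose and 6 fell (median 0.11), beside 32.4% and 33.3%. Those that reached 2-fold included Sfmbt2, a PhoRC-type repressor gene, at 70.1 and 77.6 CPM on D3, against 25.3 and 28.1 on D2 (1.47 ± 0.09), and Asxl3, a partner of the H2A deubiquitinase Bap1, which rose on D6 against D3 (1.29 ± 0.08). On D7 against D6, 4 rose and 9 fell, beside 20.5% and 15.6% of all genes. In D7G against D7, 5 rose and 5 fell, beside 22.5% and 18.2%. Of the 22, 0 reached 2-fold in either comparison. Over D7 against D2, 12 rose and 6 fell (median 0.32), beside 34.2% and 34.4% of all genes. Among those that rose were Asxl3 (1.82 ± 0.08) and Bcorl1, a PRC1.1 subunit gene (1.30 ± 0.08).

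Of 23 other Trithorax and COMPASS genes 22 were tested, since Pagr1a had 0 or 1 count per library. On D3 against D2, 4 rose and 12 fell, beside 29.6% and 28.9% of all genes, with a median of -0.13. On D6 against D3, 15 rose and 3 fell, beside 32.4% and 33.3%, with a median of 0.26. On D7 against D6, 2 rose and 9 fell, beside 20.5% and 15.6%. In D7G against D7, 3 rose and 6 fell, beside 22.5% and 18.2%. None reached 2-fold in any of the 5 comparisons, the widest, named after their values were seen, being Ncoa6 (0.92 ± 0.04 on D7 against D2) and Kdm5b, an H3K4 demethylase gene (-0.89 ± 0.04). The shared COMPASS core, also picked out afterwards, was split: Ash2l (-0.29 ± 0.04), Dpy30 (-0.36 ± 0.04) and Wdr5 (-0.18 ± 0.04) fell on D3 against D2, and Rbbp5 (0.04 ± 0.04) did not pass.

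The authors' deposited table lists all 37 members, with log2 fold changes taken to be against D2. It gives Phc1 as -1.85 on D3, -2.45 on D6, -2.40 in D7G and -2.51 on D7, and Cbx8 as 0.68, 3.04, 2.84 and 2.73 in that order. In the second deposited count table Phc1 had 99.4%, Cbx7 97.5%, Cbx8 99.5% and Phf19 99.9% of the counts of the first. The members furthest from the first table were Pcgf1 (123%), Cbx6 (119%), Rybp (116%), Rbbp7 (113%), Rbbp4 (83.1%), Mtf2 (84.9%) and Kdm6b (89.5%). Exons of Rbbp7, Mtf2, Rnf2, Kdm2b and Ash1l share 1.83 to 6.93% of their bases with an expressed gene on the opposite strand. Kdm2b overlaps both Rnf34 (5.77%) and A930024E05Rik (1.83%). Reads in those stretches are uncertain.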

How the data were processed

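RNA of 10 libraries (5 groups of 2) was measured by RNA-seq. Raw counts per gene were deposited in 2 tables, with a column of exonic length. The submitters' processing notes name STAR, HISAT2 2.1.0, featureCounts 1.6.3, limma and mm10 without their roles, and strand use and the treatment of multi-mapped reads are not given in the sources used here. A separate deposited table holds the authors' log2 fold changes and q-values (FDR), which per the file headers are for D3, D6, D7 and D7G and are taken to be against D2, whose column is 0.

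The first count table was fitted with edgeR 4.0.16 (R 4.3.3): TMM factors, the default filter on low counts, a quasi-likelihood test over all 10 libraries with a coefficient per group (5 residual degrees of freedom), Benjamini-Hochberg adjustment over 18818 genes and calls at 0.05. Libraries held 31078950 to 33418015 counts. The SE given with a log2 fold change is its absolute value divided by the square root of the quasi-likelihood F statistic. CPM per kb divides by the deposited exonic length. Alternatives were DESeq2 1.42.0, limma-voom 3.58.1, other scalings and filters, the second table, fewer groups, a replicate block and each library left out. Leaving out a library leaves a group of 1, which is assumed to vary like the others.

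The members, lists and tests were chosen with earlier results of these data known. All members are named. Values per library are given for the members with the largest changes and for Ezh1, Ezh2, Cbx2, Cbx7, Pcgf2, Bmi1, Kdm6b and Ctcf, and from the other lists for called genes with an absolute log2 fold change of at least 1, up to 3 a list and comparison. Exceptions are marked. A gene of the other lists that this rule names is not reported here. Promoter windows come from RefSeq (GRCm38.p6).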

Additional observations from a re-analysis of the deposited data

How the results depend on the processing

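Of 185 results of a member in a comparison, 131 were called, and 91 of these kept their call under all 20 alternatives. Over all results and alternatives 161 calls were lost, 20 gained and 0 reversed. Leaving out 1 library at a time gave 25 to 31 called members on D3 against D2 (31 with all libraries), 25 to 32 on D6 against D3 (32), 9 to 15 on D7 against D6 (15), 13 to 20 in D7G against D7 (20) and 31 to 33 on D7 against D2 (33). The other alternatives gave 29 to 33, 25 to 33, 12 to 15, 17 to 20 and 31 to 34. Deviations of same-numbered libraries correlated at -0.0164 to 0.0806. With 2 libraries per group this cannot show whether replicate numbers pair the libraries. With a replicate block 31, 32, 15, 20 and 33 members were called in the same order of comparisons, but on D7 against D6 Cbx8 lost its call (adjusted p = 0.0504) and Phf19 gained one (adjusted p = 0.0447). Among 19 pairs, all of paralogues except Aebp2 and Jarid2, the higher gene per kilobase differed between D7 and D2 in 2. With median transcript lengths it differed in 2 other pairs. The cause of the lower counts was not tested.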

Other observations

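Among the subunit genes of the SWI/SNF remodellers, which oppose Polycomb and are part of the wider Trithorax group, Smarca2 and Smarcd3 rose by over 2-fold between days 2 and 7. Smarca2 (Brm), an ATPase gene, had 8.97 and 8.79 CPM on D2, 27.4 and 31.3 on D3, 62.8 and 70.6 on D6, 77.1 and 69.2 in D7G and 64.3 and 58.5 on D7. It rose on D3 against D2 (1.72 ± 0.10, edgeR adjusted p = 5.84e-12) and on D6 against D3 (1.19 ± 0.07, adjusted p = 1.59e-11). The other ATPase gene, Smarca4 (Brg1), fell on D3 against D2 (-0.36 ± 0.04) and rose on D6 against D3 (0.39 ± 0.04). It stayed the higher of the pair per exonic kilobase, at 59.8 CPM per kb on D7, beside 4.30 for Smarca2. Smarcd3 (Baf60c), known from mouse heart and muscle development, had 2.26 and 2.90 CPM on D2, 3.86 and 3.79 on D3, 14.3 and 13.4 on D6, 17.2 and 19.4 in D7G and 14.0 and 13.9 on D7, a rise of 2.43 ± 0.12 on D7 against D2 (adjusted p = 3.71e-13). Of the 12 SWI/SNF genes 3 rose and 8 fell on D3 against D2, beside 29.6% and 28.9% of all genes. On D6 against D3, 9 rose and 0 fell, beside 32.4% and 33.3%. On D7 against D6, 1 rose and 4 fell, beside 20.5% and 15.6%. In D7G against D7, 5 rose and 1 fell, beside 22.5% and 18.2%. On D7 against D2, 4 rose and 5 fell, beside 34.2% and 34.4%.

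The 9 cohesin genes encode proteins that form chromatin loops with Ctcf. On D3 against D2, 0 rose and 6 fell, beside 29.6% and 28.9% of all genes. On D6 against D3, 6 rose and 2 fell, beside 32.4% and 33.3%. On D7 against D6, 0 rose and 2 fell, beside 20.5% and 15.6%. In D7G against D7, 1 rose and 4 fell, beside 22.5% and 18.2%. On D7 against D2, 2 rose and 5 fell, beside 34.2% and 34.4%. None reached 2-fold in these 5 comparisons. Of the paralogous pair, Stag2 fell on D3 against D2 (-0.53 ± 0.04, adjusted p = 6.93e-10), while Stag1 (0.02 ± 0.03) did not pass.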
